A study of Homo sapiens with 16 samples.

Results

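The genes described here encode the replication-dependent histones, the H1, H2A, H2B, H3 and H4 proteins that package newly copied DNA. They were taken as every gene whose name begins HIST1H, HIST2H, HIST3H or HIST4H and does not end in PS or in P plus digits, the endings given to pseudogenes. Of 18509 genes named in the region lists, 57 met this rule, and 141 of 59617 listed regions were assigned to them. RefSeq holds 75 genes with such names, 70 of them protein-coding and 5 listed as pseudogenes despite their names, and 18 of the 75 had no region in any list. The study placed unedited (wild-type) PC9 cells, a non-small cell lung cancer line that depends on mutant EGFR, under DMSO vehicle or the EGFR inhibitor osimertinib. Each of 4 targets was profiled with 1 library per treatment: the lysine demethylase KDM1A (LSD1) and the marks H3K4me1, H3K4me3 and H3K9me3. The labels give no dose or duration for these libraries. With 1 library each there is no replicate check of any difference between treatments, so no p-value is given and the 95% intervals cover counting error only. The intervals treat genes or regions as independent, although neighbouring histone genes share promoters.

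Replication-dependent histone genes lie in clusters, carry no introns in most cases and are transcribed mainly in S phase, when NPAT, a substrate of cyclin E and CDK2, activates them at histone locus bodies. Their mRNAs end in a stem-loop bound by SLBP in place of a poly(A) tail. H3K4me3 marks active gene starts, H3K4me1 marks enhancers and the flanks of promoters, and H3K9me3 marks silent chromatin, while KDM1A removes methyl groups from H3K4me1 and H3K4me2.

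The regions were 2 kb wide, and their number per list ran from 2073 to 13285. Each region carries the gene the authors assigned it to, its distance to the nearest transcript start and a signal of unstated scale. A promoter region is one that the authors annotated within 3 kb of a start. Ranks count regions from the highest signal down within a single list, and ranks from lists of different lengths do not measure a change in the amount of a mark. Histone regions were almost all H3K4me3: 54 of 11621 regions with vehicle and 80 of 13285 with osimertinib. H3K4me1 contributed 6 of 9761 and 1 of 6515. H3K9me3 (2749 and 2073 regions) and KDM1A (4731 and 8882 regions) contributed 0.

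The 120 bases upstream of the RefSeq start are shown for the gene of each class with the highest mean rank over both H3K4me3 lists. The ranked region need not cover the bases shown. It missed them at HIST1H1B and HIST2H3A with osimertinib and at HIST1H2AC with vehicle. Sequences are from RefSeq (GRCh38.p14), 5′ to 3′ on the strand of the gene. Capitals mark TATAAA, the TATA box; CCAAT; ATTTGCAT, the octamer bound by POU2F1; AAACACA, the H1 box; and GGTCCG, part of the H4 element bound by HINFP. Each was marked on either strand.
HIST1H1B, linker histone, chr6:27867589-27867708, minus strand: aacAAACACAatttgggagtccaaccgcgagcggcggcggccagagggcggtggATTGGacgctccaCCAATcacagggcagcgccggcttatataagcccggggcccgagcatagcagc
HIST1H2BD, chr6:26158001-26158120, plus strand: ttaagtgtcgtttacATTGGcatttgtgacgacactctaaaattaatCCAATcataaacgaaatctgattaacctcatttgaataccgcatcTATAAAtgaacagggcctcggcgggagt
HIST2H3A, an H3.2 gene, chr1:149852488-149852607, plus strand: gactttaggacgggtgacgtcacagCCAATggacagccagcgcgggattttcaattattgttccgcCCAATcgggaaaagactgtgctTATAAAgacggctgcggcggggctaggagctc
HIST2H4A, chr1:149832537-149832656, plus strand: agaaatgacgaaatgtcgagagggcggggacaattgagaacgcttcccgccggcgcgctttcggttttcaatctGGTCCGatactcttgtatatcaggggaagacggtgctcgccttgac
For H2A the gene was HIST1H2AC, which faces away from HIST1H2BC. All 245 bases between the starts of that divergent pair are given on the plus strand, since both genes read from them.
HIST1H2BC and HIST1H2AC, chr6:26123927-26124171, plus strand: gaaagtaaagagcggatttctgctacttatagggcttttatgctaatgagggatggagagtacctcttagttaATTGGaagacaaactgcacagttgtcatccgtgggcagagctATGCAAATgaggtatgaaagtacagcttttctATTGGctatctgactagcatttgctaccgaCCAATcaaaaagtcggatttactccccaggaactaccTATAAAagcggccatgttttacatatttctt

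The classes differed in these motifs over the 250 bases upstream of the 65 histone genes that have a RefSeq promoter sequence. Both strands were searched, and no motif contains the letters of another. TATAAA was present in 43 of 65 (66.2%), against 11.1% of all 27305 RefSeq promoters. CCAAT was present in every H1, H2A, H2B and H3 promoter but in only 3 of 13 H4 promoters, and in 33.0% of all promoters. ATTTGCAT was found in 11 of 16 H2A and 14 of 18 H2B promoters, in 1 of 12 H3 promoters and in 0 of the H1 and H4 promoters, against 1.66% of all. The H1 box was in 6 of 6 H1 promoters and in 0 of the other 4 classes (4.95% of all promoters), and GGTCCG was in 12 of 13 H4 promoters (9.33% of all). Between the starts of the 11 distinct divergent promoters no longer than the searched window, CCAAT occurred in 11, and TATAAA and ATTTGCAT in 8 each. These are matches of letters, not measured binding sites.

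H3K4me3 was listed at the promoters of 39 histone genes with vehicle and 45 with osimertinib. Over both lists 52 of the 75 genes had an H3K4me3 promoter region. Of these, 32 (61.5%, 47.0% to 74.7%) were in both lists, where 55% of all 9819 genes with a promoter region were. The vehicle list alone held 7 (13.5%, 5.59% to 25.8%), against 27.4% of all genes, and the osimertinib list alone held 13 (25%, 14.0% to 38.9%), against 17.5%. The intervals for both lists and for osimertinib alone include the value over all genes, and the one for vehicle alone ends below it. That last difference depends on the promoter definition: with promoters within 1 kb of a start there were 12 vehicle-only, 10 osimertinib-only and 22 shared genes of 44, and the vehicle-only share (27.3%) was then close to that of all genes (29.2%).

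**Figure D1:**
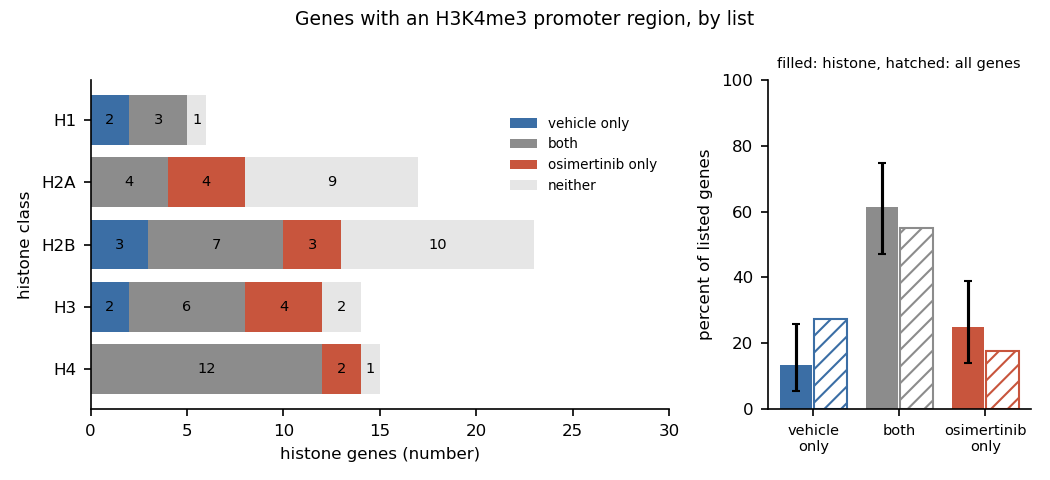
Left, histone genes of each class (number) with an H3K4me3 promoter region with vehicle only, in both lists, with osimertinib only or in neither. Right, percent of the 52 listed histone genes in each category (filled bars, exact 95% intervals) beside all 9819 listed genes (hatched bars); of the 14 listed H4 genes 12 were in both lists.

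By class, H4 was the most evenly listed. Of its 15 genes, which with few exceptions encode one and the same protein, 12 had a promoter region in both lists, 2 with osimertinib only, 0 with vehicle only and 1 in neither. Of the 6 genes for linker histone H1, 3 were in both lists and 2 with vehicle only. The 14 H3 genes had 6 in both lists, 2 with vehicle only and 4 with osimertinib only. Of 17 H2A genes, 4 were in both lists, 4 with osimertinib only and 9 in neither. Of 23 H2B genes, 7 were in both lists, 3 were in each list alone and 10 in neither. Of the 5 names that RefSeq lists as pseudogenes, HIST2H2BB and HIST2H2BD were listed with vehicle only and HIST3H2BA with osimertinib only. Among the clusters, the large HIST1 group on chromosome 6 (chr6:25726063-26285534, 34 genes) had 14 genes in both lists, 3 with vehicle only and 7 with osimertinib only. The HIST2 cluster on chromosome 1 (chr1:149782689-149887965, 13 genes) had 5 in both, 1 with vehicle only and 2 with osimertinib only.

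As a group, histone promoters stood high in the H3K4me3 lists. The highest promoter region of a histone gene lay at a median of 20.3% from the top of the vehicle list (interval of the median 14.3% to 29.1%), where the median over all 8096 promoter genes was 38.1%. In the osimertinib list it lay at 9.29% (2.18% to 22.6%), where the median over all 7124 was 35.9%. The strongest 10% of the vehicle list held 10 of 39 histone genes (25.6%), against 14.1% of all promoter genes. The strongest 10% of the osimertinib list held 24 of 45 (53.3%), against 15.9%. In the strongest 1% there were 3 of 39 (7.69%, against 1.42% of all genes) and 10 of 45 (22.2%, against 1.73%). The H1 class differed with vehicle: the median of its 5 listed genes was 67.4%, where the other classes had medians from 10.1% to 24.1%. With osimertinib the class medians ran from 1.17% to 11.1%.

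With vehicle the highest were HIST1H2AC at rank 42, HIST2H3A at rank 99 and HIST1H2BD at rank 100 of 11621. With osimertinib they were HIST2H3C, a second H3.2 gene, at rank 23, HIST1H2AC at rank 34 and HIST1H2BD at rank 37 of 13285. HIST1H2AC, an H2A gene, and HIST1H2BD, an H2B gene, were thus near the top of both lists, while HIST2H3C ranked 340 with vehicle and HIST2H3A ranked 71 with osimertinib. The HIST1H2AC region covered chr6:26124382-26126381 with vehicle and began at 26124120 with osimertinib, so it lay on the H2A side of the divergent promoter printed above. At the low end with vehicle were HIST2H2BB, a transcribed pseudogene, at rank 11310 and HIST1H1T, a testis H1 gene, at rank 10765. At the low end with osimertinib were HIST1H4G at rank 10310 and HIST3H3, a testis H3 gene, at rank 9524. HIST1H1T was in the osimertinib list too, at rank 4248.

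Among the 32 genes in both lists, 29 stood nearer the top of the osimertinib list than of the vehicle list (90.6%). Over all 5401 genes in both lists 48.2% did. Each list rests on 1 library, so how far such a count varies between repeat libraries is not known. Of these 32 genes, 9 were in the strongest 10% with vehicle and 21 with osimertinib. The same shares over all 5401 genes were 20.01% and 19.7%. The genes that went the other way were HIST1H3B (rank 1820 with vehicle and 3496 with osimertinib), HIST1H4L (2170 and 2998) and HIST4H4 (2260 and 3006). The highest regions of a gene need not be the same site: they overlapped between the lists at 24 of the 32 genes, among them HIST4H4 but not HIST1H3B or HIST1H4L. Of those 24 genes 23 stood nearer the top with osimertinib (95.8%), against 46.8% of 4719 such genes overall. The class counts were 3 of 3 for H1, 4 of 4 for H2A, 7 of 7 for H2B, 5 of 6 for H3 and 10 of 12 for H4.

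Genes of this group differed widely in how far apart their places were. HIST1H2BK ranked 2819 with vehicle and 53 with osimertinib. HIST1H2AG, an H2A gene of the same subcluster (chr6:27132316-27147562), ranked 3773 and 129. HIST1H4D ranked 5555 and 239, and HIST1H3J 530 and 44. The vehicle and osimertinib regions behind these ranks overlapped by 1312 bp at HIST1H2AG and 1065 bp at HIST1H3J, and not at HIST1H2BK. At HIST1H4D they shared only 115 bp, so its ranks belong to largely different positions. The HIST1H4D start lay inside the osimertinib region and 1265 bp outside the vehicle one. These genes were chosen as examples after their values were seen. Where the deposited width column held a single repeat in both lists, which keeps out regions whose number of repeats differed, 16 of 17 histone genes stood nearer the top with osimertinib, against 47.7% of 3193 genes.

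**Figure D2:**
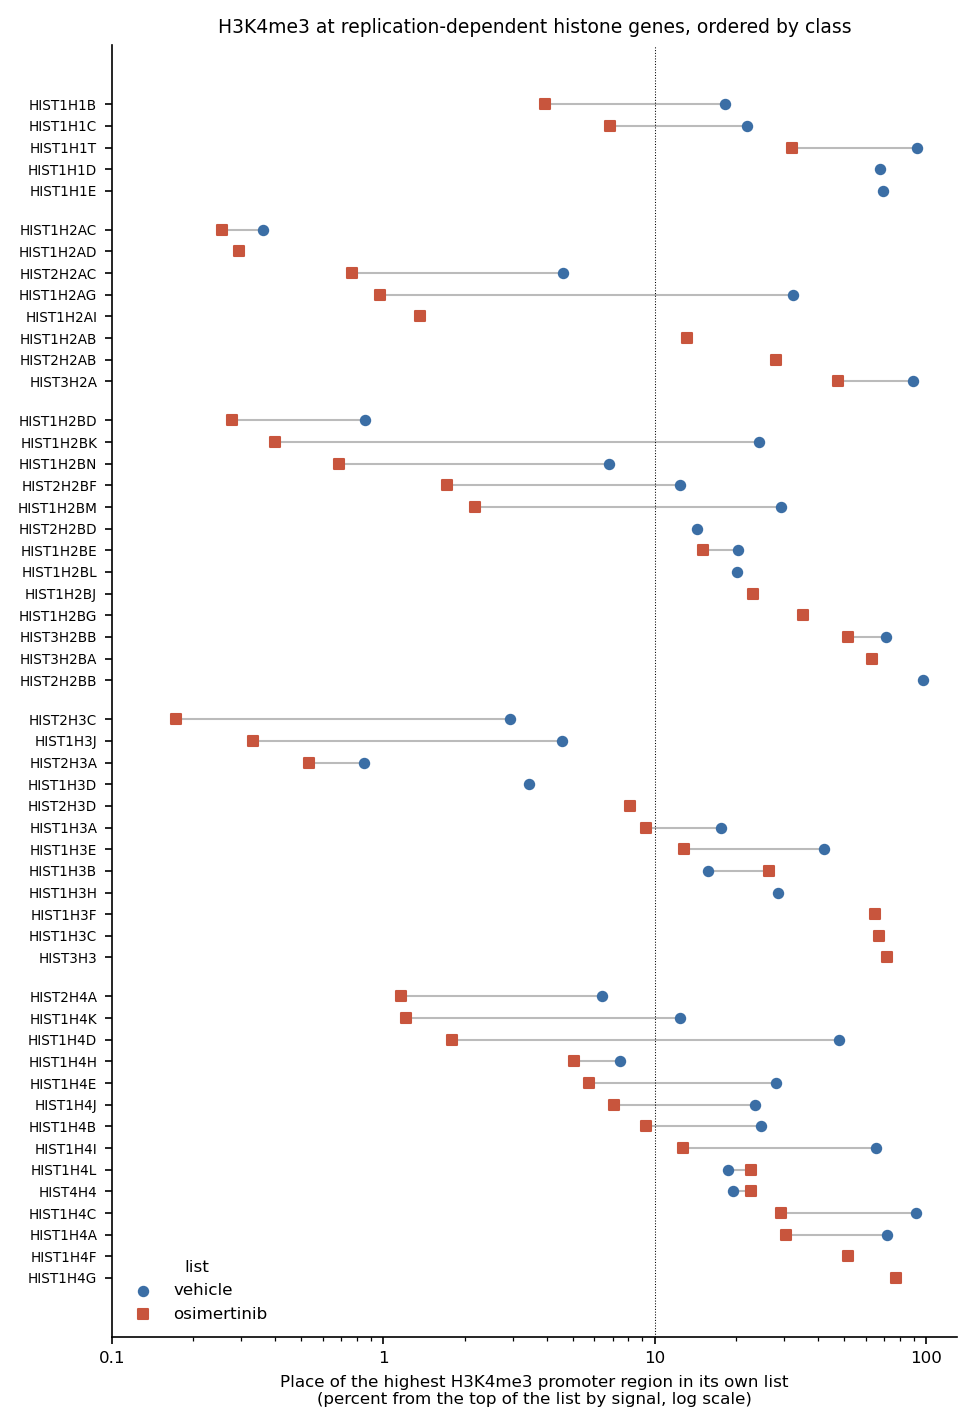
Place of the highest H3K4me3 promoter region of each of the 52 histone genes in its own list, in percent from the top by signal (log scale), for vehicle (circles) and osimertinib (squares), grouped by class. Grey lines join genes in both lists, and 29 of 32 have the square to the left of the circle; the dotted line is at 10%.

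The other genes of histone supply did not all share this. Of the 12 replication-independent histone genes, which are expressed outside S phase and include H2AFZ and H3F3A, 8 were in both H3K4me3 lists and 1 of them, H2AFV, stood nearer the top with osimertinib. H3F3A, an H3.3 gene, ranked 207 with vehicle and 879 with osimertinib. Of 20 S phase genes, 10 were in both lists and 10 of 10 stood nearer the top with osimertinib by percent of the list, 8 of 10 by rank number. Among these, CDT1, a licensing factor for replication origins, ranked 9146 and 843, PCNA, the sliding clamp, 2798 and 911, and RRM2, a ribonucleotide reductase subunit, 1611 and 529. Of the histone transcription and RNA processing factors 4 of 9 stood nearer the top with osimertinib (2 of 9 by rank number), and of the histone chaperones 4 of 7 (3 of 7). Among 53 other genes in both lists within 1 Mb of a histone cluster, 39 did (73.6%), a share between that of the histone genes and that of all genes. The part of these neighbours and of the S phase genes in the places of the histone genes was not tested. These counts were made after the places of the histone genes were seen.

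Promoter presence in those lists was as follows. NPAT, the coactivator of histone genes, had an H3K4me3 promoter region with vehicle only (rank 8798), as did CDK2 (3412), the stem-loop exonuclease ERI1 (9915) and the 3′ end nuclease CPSF3 (8469). The CDK2 region overlapped an osimertinib region of another assignment, and that of CPSF3 lay 125 bp from one. ZNF473, a histone pre-mRNA processing factor, was listed with osimertinib only (rank 8862), and 9 of the 14 listed factors were in both lists. Of the 9 listed chaperones 7 were in both lists and NAP1L1 and SSRP1 with vehicle only. The 10 listed replication-independent histone genes had 2 with vehicle only, H2AFX and H2AFY, and 0 with osimertinib only. The H2AFX region (rank 395) overlapped an osimertinib region of another assignment. The 14 listed S phase genes had 10 in both lists, MCM3 and RRM1 with vehicle only and E2F2 and PRIM1 with osimertinib only. Over all 9819 genes with an H3K4me3 promoter region, 55% were in both lists, 27.4% with vehicle only and 17.5% with osimertinib only. The counts of these small groups were not tested against those shares.

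Several histone genes listed in 1 treatment only lay beside a region that the other list assigned to a neighbour. HIST1H3D had the highest vehicle-only region, at rank 399 (chr6:26196687-26198686), and HIST1H2AD the highest osimertinib-only region, at rank 39 (chr6:26198122-26200121). Those regions overlap by 565 bp, and RefSeq gives both genes the same start, so that a single upstream sequence stands for both.
HIST1H3D and HIST1H2AD, chr6:26199294-26199413, minus strand: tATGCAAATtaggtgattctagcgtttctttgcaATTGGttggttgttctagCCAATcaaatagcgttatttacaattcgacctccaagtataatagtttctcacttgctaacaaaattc
The shared RefSeq start lay inside the osimertinib region and 607 bp outside the vehicle one. The deposited distance of the vehicle region to the nearest transcript start was 0, so the authors' annotation has a start within it. The 2 regions may thus belong to different starts. The bases shown hold the octamer, CCAAT on either strand and no TATAAA.

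The assigned name also differed between overlapping regions at the promoter of HIST1H2BL and HIST1H2AI, a divergent pair. The vehicle region was assigned to HIST1H2BL (rank 2335, chr6:27807170-27809169) and the osimertinib region to HIST1H2AI (rank 182, chr6:27808150-27810149), with 1020 bp in common. HIST1H3H, next to them, was listed with vehicle only (rank 3318) at 466 bp from that osimertinib region. The vehicle-only region of HIST1H1D, a linker histone gene (rank 7835), overlapped an osimertinib region named for the pseudogene HIST1H2APS3 (rank 1217) by 1748 bp. The osimertinib-only region of HIST1H2AB (rank 1746) overlapped the vehicle region of HIST1H3B by 717 bp.

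The other vehicle-only genes were HIST1H1E (rank 8057), HIST2H2BD (rank 1658) and HIST2H2BB (rank 11310). HIST1H1E, a linker histone gene, had 3 osimertinib regions outside its promoter, 1 of them 675 bp away. The HIST2H2BD region lay 3606 bp from an osimertinib region of HIST2H3C, and the osimertinib region nearest to that of HIST2H2BB was 50747 bp away.

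The other osimertinib-only genes were spread over the list. HIST2H3D, an H3.2 gene, ranked 1080 with a region 2778 bp from a vehicle region of HIST2H2BF. A weaker promoter region of HIST2H3D (rank 3238) lay 678 bp from that vehicle region. The H2B genes HIST1H2BJ and HIST1H2BG ranked 3064 and 4664, and the H2A gene HIST2H2AB ranked 3711. HIST1H4F ranked 6835, HIST3H2BA 8365, HIST1H3F 8593, HIST1H3C 8915, HIST3H3 9524 and HIST1H4G 10310. The 3 neighbours HIST1H4F, HIST1H4G and HIST1H3F had HIST1H1D as the nearest vehicle region, at 4229, 9238 and 14023 bp. In all, 3 of 7 vehicle-only genes (42.9%) had a region that overlapped the other list, against 7.64% of all 2695 vehicle-only genes, and 3 of 13 osimertinib-only genes (23.1%) did, against 12.1% of 1723. Within 1 kb there were 5 of 7 (71.4%, against 13.7% of all) and 4 of 13 (30.8%, against 19.5%).

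Gene starts give the same comparison without gene assignment. A vehicle H3K4me3 region of any name covered 28 of the 65 RefSeq histone starts (43.1%, 30.8% to 56.0%), against 33.8% of 15842 protein-coding starts. An osimertinib region covered 30 (46.2%, 33.7% to 59.0%), against 26.4%, and 18 starts were covered in both. Within 1 kb of a region were 48 starts with vehicle (73.8%, against 39.7% of protein-coding starts) and 49 with osimertinib (75.4%, against 31.9%), and 8 starts were near a region in neither list. Histone starts covered with vehicle only numbered 10 (15.4%) and those with osimertinib only 12 (18.5%), where protein-coding starts had 13.7% and 6.28%. With 1 library per treatment the intervals do not measure a difference between treatments. By class, 2 of 16 H2A, 3 of 18 H2B, 2 of 12 H3, 1 of 6 H1 and 0 of 13 H4 starts were farther than 1 kb from a region in both lists.

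**Figure D3:**
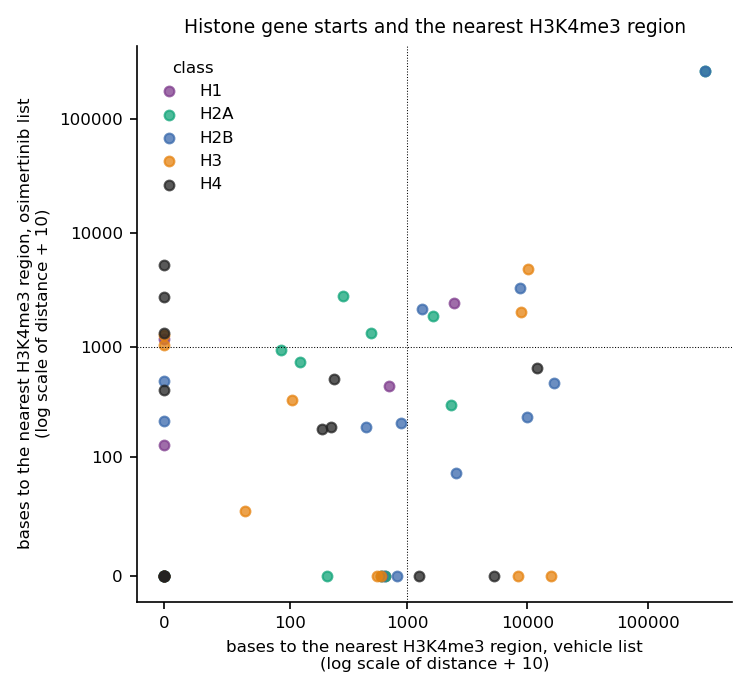
Bases from each of the 65 RefSeq histone gene starts to the nearest H3K4me3 region of any assignment in the vehicle list (horizontal) and in the osimertinib list (vertical), on log scales of the distance plus 10, coloured by class. Dotted lines are at 1000 bases; 40 starts lie within that distance in both lists and the pair at the upper right is HIST1H2AA and HIST1H2BA.

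Some histone genes without a promoter region of their own name were near a region of another name. Of 19 genes with a RefSeq start and no H3K4me3 promoter region, 7 had the start covered in either list and 13 had a region within 1 kb. The same count over all genes without a promoter region was not made, so whether these shares are unusual is not known. HIST1H2AK, HIST1H2AJ, HIST2H2BE, HIST1H2AM and HIST1H2BO were covered in both lists by regions assigned to HIST1H2BN, HIST1H2BM, HIST2H2AC and, for the last 2, HIST1H3J. The testis genes HIST1H2AA and HIST1H2BA had their nearest region in either list at least 265030 bp away. In the 13 divergent pairs, 11 of them H2A with H2B and 194 to 979 bp between starts, a region spanned both starts in 5 pairs with vehicle and 6 with osimertinib. HIST1H3D and HIST1H2AD share a start and both pair with HIST1H2BF, and over the 12 distinct promoters the counts were 5 and 5. Exactly 1 partner was named in 7 and 8 pairs. In some of these the region spanned both starts, as at HIST2H2BE and HIST2H2AC, so a count by gene name leaves out a partner that shares it. In others the unnamed start lay outside the region, as at HIST1H2BC, 456 bp from it with vehicle.

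Within the clusters, osimertinib regions were more numerous and covered more of the span of the 3 largest groups. The HIST1 group of 34 genes held 29 regions of any name with vehicle and 50 with osimertinib, which covered 10.2% and 17.9% of its 559 kb. The subcluster of 16 genes (chr6:27807479-27893891) held 12 and 20, covering 26.6% and 46.3%. The HIST2 cluster held 12 and 18, covering 22.8% and 33.4%. The smaller chr6:27132316-27147562 subcluster went the other way, with 5 and 3 regions, and the whole osimertinib list was itself the longer one. Regions assigned to histone genes outside promoters numbered 3 with vehicle and 23 with osimertinib. The share in promoters was 94.4% of histone regions with vehicle, against 90.5% of all regions, and 71.2% with osimertinib, against 73.5%, so it moved as in the whole lists. Of these 23 regions, 3 (13.04%) overlapped a vehicle region, against 16.8% of all osimertinib regions outside promoters.

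**Figure D4:**
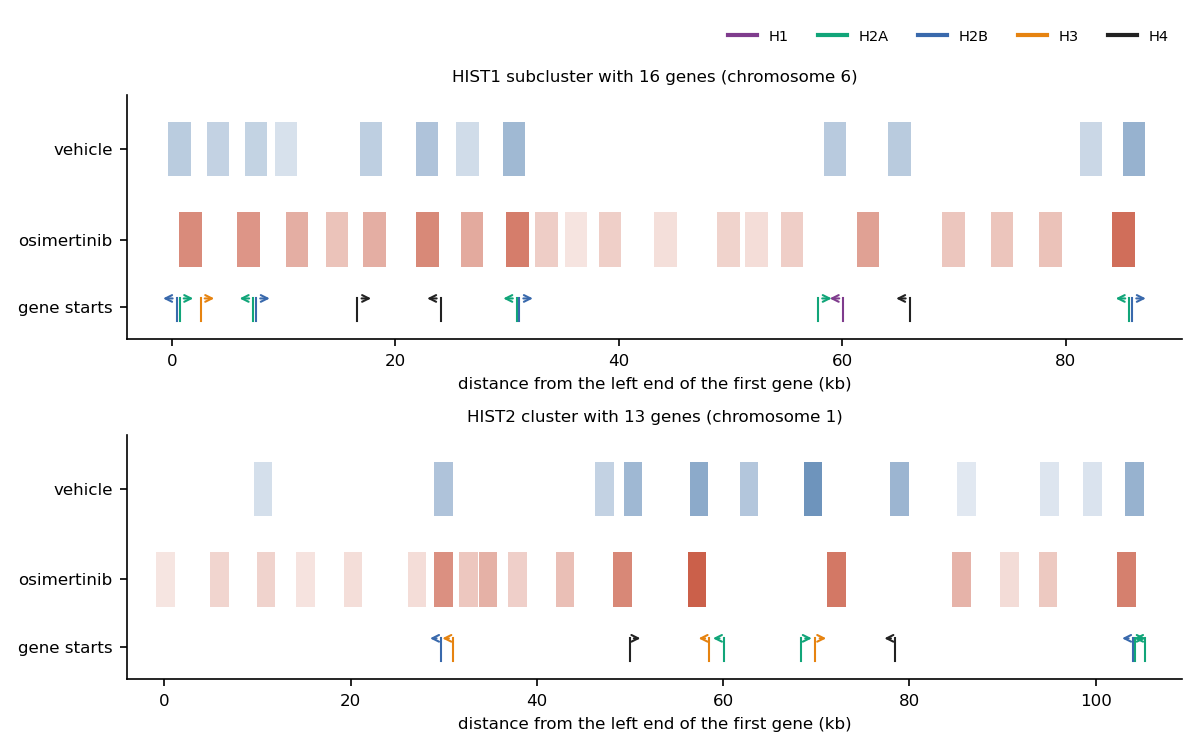
H3K4me3 regions of any assignment (boxes, drawn to scale) with vehicle and osimertinib across the HIST1 subcluster of 16 genes and the HIST2 cluster of 13 genes, with RefSeq gene starts and directions coloured by class, in kb from the left end of the first gene. Darker boxes stand nearer the top of their own list; the upper cluster holds 12 vehicle and 20 osimertinib regions and the lower one 12 and 18.

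Over all their H3K4me3 regions, 42 of 54 vehicle regions at histone genes overlapped an osimertinib region by at least 1 bp (77.8%, 64.4% to 88.0%), against 59.6% of all vehicle regions. In the other direction 38 of 80 did (47.5%, 36.2% to 59.0%), against 52% of all. Of histone promoter regions, 40 of 51 did with vehicle (78.4%, against 60.6% of all promoter regions) and 35 of 57 with osimertinib (61.4%, against 64.7%). The regions sat farther from the start than at other genes. The highest promoter region was centred within 500 bp of the transcript start at 13 of 39 histone genes with vehicle (33.3%, all genes 53.9%) and at 10 of 45 with osimertinib (22.2%, all genes 44.4%). For genes in both lists the region began a median of 776 bp apart in the 2 lists, against 451 bp over all genes.

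H3K4me1 was scarce at these genes, as it was near the starts of protein-coding genes in general. HIST1H4B (rank 8273), HIST1H1T (rank 9067) and HIST1H2BC (rank 9671 of 9761) had a promoter region with vehicle only, and HIST1H4D (rank 6062 of 6515) with osimertinib only. All 4 lay low in their lists, from 84.8% to 99.1% from the top. Over all 3450 genes with an H3K4me1 promoter region, 62.3% were vehicle-only, 16.3% osimertinib-only and 21.3% shared, so 3, 1 and 0 of 4 genes cannot be read apart from that background. Regions outside promoters were assigned to HIST2H4A (rank 9378), HIST1H2AC (rank 9548) and HIST1H1E (rank 8450), all with vehicle. The HIST1H4B and HIST1H1T regions overlapped the H3K4me3 region of the same gene and treatment by 1128 and 757 bp, the HIST1H4D region by 1947 bp, and the HIST1H2BC region lay 415 bp from the H3K4me3 region of HIST1H2AC. With vehicle 3 of 65 histone starts lay within 1 kb of an H3K4me1 region (4.62%, against 5.5% of protein-coding starts) and with osimertinib 1 (1.54%, against 0.941%).

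Neither H3K9me3 nor KDM1A was listed at a replication-dependent histone gene. For both targets and treatments 0 of 65 starts lay within 1 kb of a region, which allows up to 5.52% at the upper end of the exact 95% interval. Over protein-coding starts the shares were 0.41% and 0.928% for H3K9me3 and 0.372% and 0.467% for KDM1A, vehicle first, so an absence at 65 genes was not distinguishable from these rates. The closest H3K9me3 regions were 175.8 kb away with vehicle and 62.6 kb with osimertinib. A vehicle KDM1A region (chr1:149792620-149794619, rank 3470 of 4731) lay inside the RefSeq span of HIST2H2BF but was assigned to AC243772.2, and 17751 bp separated it from the start. With osimertinib the nearest KDM1A region was 129.6 kb from HIST2H2AB. In contrast, KDM1A promoter regions were listed with osimertinib only at the replication-independent genes H3F3B (rank 3 of 8882) and H3F3C (rank 22), which encode H3.3 and a closely related protein from near-identical sequences, so reads may not be assigned uniquely between them.

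Some of these genes have promoter sequences that are identical or nearly so. Of 2080 pairs of histone promoters compared, 6 were over 80% identical, of which 1 is HIST1H3D with HIST1H2AD, a single shared start, and 5 have different starts. HIST2H4A and HIST2H4B, HIST2H2AA3 and HIST2H2AA4, and HIST2H3A and HIST2H3C were 100% identical over the bases compared, and HIST1H4J and HIST1H4K 98.3%. Values for these copies are uncertain, since how reads that match both were handled is not given in the sources used here. Without the 10 genes in those 5 pairs, 24 of 27 genes in both lists stood nearer the top with osimertinib.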

How the data were processed

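PC9 chromatin was profiled for 4 targets under 2 treatments with 1 library each; 6 RNA and 2 IgG samples of the series of 16 were not analysed here. GRCh38 (hg38) was the build and Bowtie2 2.3.4, HISAT2 and featureCounts were among the tools, per the submitters' processing notes, whose roles for each tool were not used here. The assay, region caller, threshold, control and read number were not given in the sources used here, so the depth is unknown.

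Each deposited list holds regions of 2000 bp with an annotation, an assigned gene, a signal and other columns, per the file headers. The deposited signal is never negative and its scale is not stated, so it was used only to rank regions within a list. A further deposited column gives how far, in bp and with a sign, a region lies from the closest transcript start, and another, also of the other unit, repeats the region width a number of times.

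Names were matched to RefSeq (GRCh38.p14); of 57 listed names, 57 overlapped the RefSeq gene and 54 of the deposited gene IDs had a symbol, which was the RefSeq one in 54. Genes over the whole lists were counted by gene ID. Clusters join genes at most 500 kb apart, and divergent pairs have starts within 1 kb. Gene starts and promoter sequences are from RefSeq for 65 of the 75 genes. Promoter pairs were compared without gaps at shifts of up to 100 bases, over at least 200 bases. Intervals are exact binomial at 95%, and that of a median is from order statistics.

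The members and gene lists were chosen with earlier results of these data known. The text names in full the 3 highest and 2 lowest H3K4me3 promoters per list, genes in 1 list only, and genes with a region of another target. The count of genes nearer the top of a list was added after the data were seen. With 1 library per target and treatment no test between treatments was made. Overlaps were checked against bedtools 2.31.1 and tested on simulated data (Python 3.11.15, pandas 2.3.3, scipy 1.17.1). Alternatives were other promoter, overlap and start distances, any assigned region, equal list lengths, pseudogene names kept and, added after seeing the data, RefSeq pseudogenes or near-identical copies left out.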

Additional observations from a re-analysis of the deposited data

How the results depend on the processing

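Of 108 alternative values 97 stayed within the spread or within 1.5 times the reported count, and 11 moved. Many of the 97 could not have moved. The H3K9me3 and KDM1A lists held no histone region, so their promoter gene counts were 0 under every alternative. All 11 moves were in H3K4me3 or H3K4me1 values. For H3K4me3, vehicle-only histone genes numbered 12 in place of 7 with promoters within 1 kb, where osimertinib-only genes numbered 10 in place of 13, and 2 when a region of the other list within 1 kb counted as both. H3K4me1 vehicle-only genes numbered 6 with any assigned region and 0 with lists of equal length, and 1 gene was in both lists when pseudogene names were kept. The share of histone H3K4me3 regions that overlapped the other list was 51.9% (vehicle) and 33.8% (osimertinib) when 1000 bp were required, and 94.4% (vehicle) within 1 kb. Starts within 1 kb in place of covered numbered 48, 49 and, for H3K4me1 with vehicle, 3. The cause of these moves was not tested.

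The share of genes in both lists nearer the top with osimertinib was 90.6%, with 90.6%, 94.1%, 95.8% and 88.9% under the 4 alternatives chosen after seeing the data: rank number, 1 width repeat, overlapping highest regions, and no near-identical copies. By rank number 40.5% of all genes did. No paired analysis was possible because each target and treatment has 1 library. The depth is unknown, so an unlisted promoter may have been below the region threshold.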
